A study of Homo sapiens with 24 samples.

Results

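The 34 genes described here encode the glucose and lactate transporters, the enzymes of glycolysis, the lactate dehydrogenases, the pyruvate dehydrogenase kinases and 7 genes of the hypoxia response. They were chosen by name, and all 34 were found by gene symbol among the 58051 genes that every library holds. Their RNA was measured by poly-A RNA-seq in 24 libraries from 3 human colorectal carcinoma cell lines, HT29, HCT116 and SW480. In each line, 2 clones with unedited *CTNNB1* (WT) were set beside 2 clones in which CRISPR/Cas9 had removed an exon of both *CTNNB1* alleles and shifted the reading frame (KO), and each clone was grown in 2 rounds, A and B. In HT29 the WT clones are 11 and 40 and the KO clones 28 and 38, in HCT116 the WT clones are 4 and 6 and the KO clones 44 and 47, and in SW480 they are 4 and 5, and 17 and 21. *CTNNB1* encodes β-CATENIN, the coactivator through which WNT signalling reaches its target genes. HT29 and SW480 carry inactivating *APC* mutations and HCT116 carries an activating *CTNNB1* mutation, so the pathway is active in the WT clones of all 3 lines. WT clones, like KO clones, had been exposed to CRISPR/Cas9 and cloned in the same way, from single sorted cells. All cells were kept in high-glucose medium with pyruvate. Each comparison of genotypes is thus one of 2 clones with 2, and the 4 libraries of a group are 2 rounds of each clone. KO clones of SW480 stopped dividing and became senescent after long culture, according to the study's account of the clones.

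The libraries held 22297049 to 29068378 counted reads, with a median of 27486226. Library KO 47A of HCT116 held reads for 35449 genes, where the other libraries held reads for 20256 to 24944. The reason was not tested. *CTNNB1* was at 4.98% of its WT mean in HT29 KO clones, 1.83% in HCT116 and 2.18% in SW480, with no overlap between the libraries of the genotypes. The summed level of 10 colorectal epithelial markers was 131450 to 197520 in HCT116 and SW480, with overlapping genotypes, and in HT29 every KO library (463470 to 750620) was above every WT library (322780 to 453710). Of these markers *KRT19*, *KRT20* and *CDH17* rose in HT29 KO clones, and none fell. In HCT116 2 of 7 tested markers rose and 2 fell, with *CDH1* going from 1481 ± 215 in WT to 3323 ± 382 in KO libraries. In SW480 2 of 7 fell and none rose, with *CDX2* going from 1097 ± 263 to 106 ± 55.8. *CDX1* was at or under 3 reads in every group except HT29 KO, as were *CDH17* in HT29 WT and *KRT20* in HCT116 and SW480 KO libraries. The summed fibroblast markers were at 13.2 to 23.0 in HT29 WT and 109 to 1210 in HT29 KO libraries. Of these, *COL1A2*, *COL3A1* and *DCN* were at or under 3 reads in both genotypes, and *LUM* went from 0 in WT to 607 ± 591 in KO libraries. The summed leukocyte markers were at 39.1 to 50.5 in SW480 WT and 159 to 218 in SW480 KO libraries, with *PTPRC* and *CD68* at or under 3 reads in both. *CD14* went from 37.4 ± 6.92 to 172 ± 28.4 there. Both sums thus mostly followed single genes. The part of these markers in the members' values was not tested. Library KO 38B of HT29 stood apart from the other HT29 KO libraries in *LDHB* and *HIF1A*. In bulk RNA, fewer cells of a kind and less RNA per cell cannot be told apart.

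Glycolysis splits glucose into pyruvate. Glucose enters through facilitative transporters, is trapped by hexokinases, is committed to breakdown by phosphofructokinase and is cut into trioses, which the lower pathway turns into pyruvate with a net gain of ATP. Pyruvate is then either reduced to lactate, which leaves the cell through monocarboxylate transporters, or oxidised in mitochondria by pyruvate dehydrogenase, which the PDK kinases switch off. In low oxygen the transcription factor HIF-1 escapes the prolyl hydroxylases that mark it for breakdown and raises the transcription of most of these genes, and in colorectal cancer cells WNT signalling and MYC are known to act on some of them as well.

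The members differed between the lines in how many passed the test. Values are gene counts divided by 1 size factor for each library, and a member passed where limma on log2(value + 1) gave an adjusted p under 0.05 over all genes tested. Of 33 members tested in each line, none passed in HT29, 4 passed in HCT116 (1 rose and 3 fell in KO clones) and 21 passed in SW480 (13 rose and 8 fell). Among all genes tested, 2.56% passed in HT29 (2.08% rose and 0.476% fell), 14.0% in HCT116 (8.05% rose and 5.93% fell) and 48.1% in SW480 (26.1% rose and 22.1% fell), so the members' 63.6% in SW480 stood above the share of all genes there, and their 12.1% in HCT116 was near it. In HT29, 5 members had an unadjusted p under 0.05, and among the alternatives edgeR's quasi-likelihood test passed 1 member and DESeq2 passed 2. With the rounds as a replicate block, 7 members passed in HCT116, and with clone means as the samples 1 passed in HCT116 and 10 in SW480. These counts were not set beside the share of all genes under the same alternatives. Changes past 2-fold as well, here called DEGs, were 0, 1 and 3 members, against 2.30%, 5.06% and 17.5% of all genes. The members' median log2 fold changes in HT29, HCT116 and SW480 were 0.091, −0.11 and 0.079, beside 0.031, −0.014 and −0.0042 over all genes tested. Without regard to sign, the medians were 0.306, 0.245 and 0.263 for the members, beside 0.312, 0.247 and 0.354 over all genes tested. In SW480 the members thus passed more often than all genes, while their median change was smaller in size. The part of expression level in how many members passed was not tested.

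In HT29 the libraries of KO and WT did not overlap for 2 members, both higher in KO, where 8.31% of all genes had every KO library above every WT library and 4.71% below. In HCT116 every KO library was above every WT library for 2 members and below for 3 (10.9% and 9.61% of all genes). In SW480 the same held for 12 members above and 5 below (25.3% and 20.9% of all genes). *SLC2A3* was not tested in HT29 and *CA9* was not tested in HCT116 and SW480, because fewer than 4 of the 8 libraries of the line reached a value of 10.

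**Figure D1:**
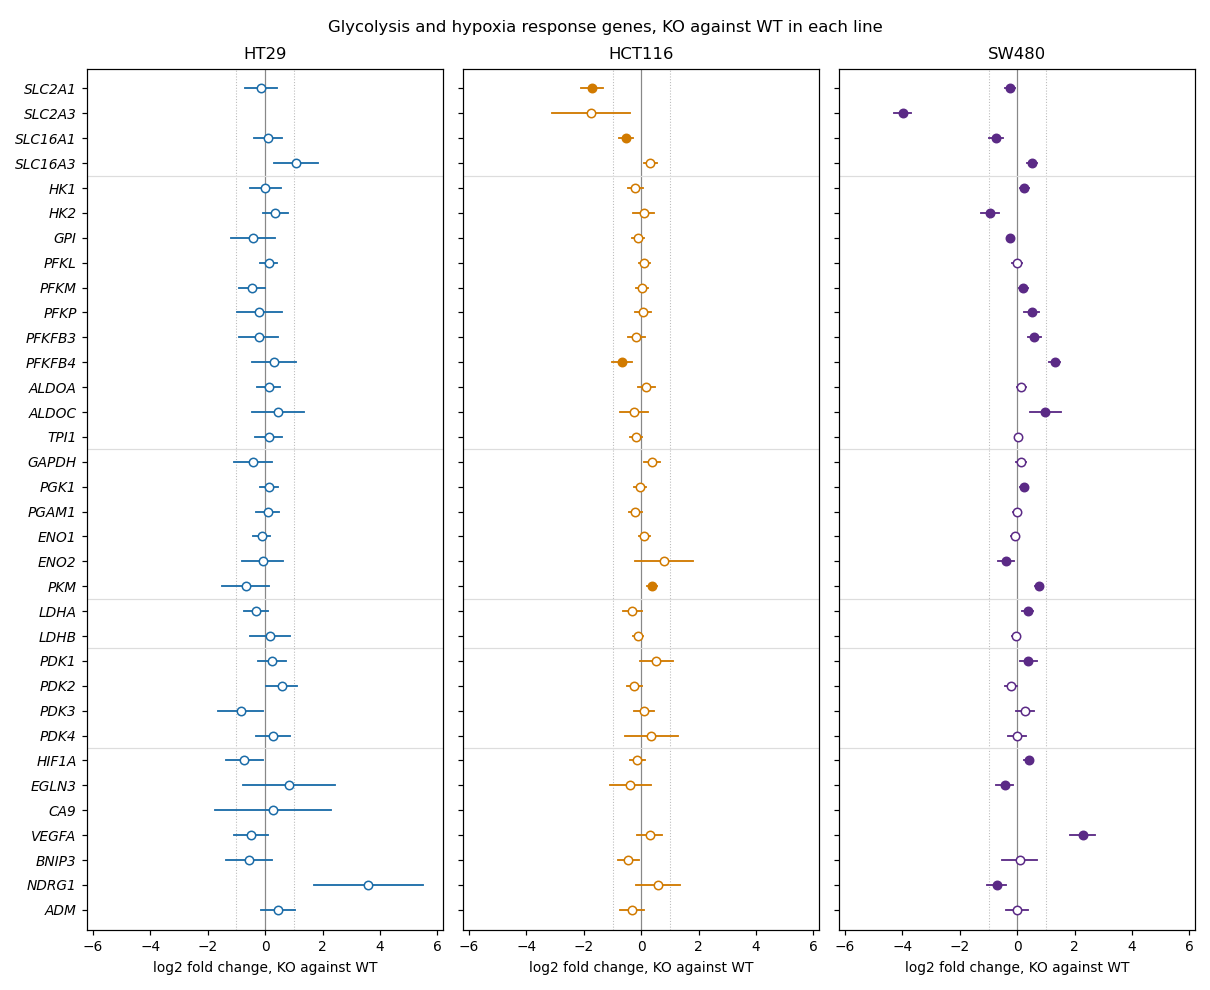
Log2 fold change of each member, KO minus WT, in HT29, HCT116 and SW480 (1 column each), with 95% confidence intervals as bars, filled points for members that passed the test and dotted lines at 1 and −1. No point is filled in HT29, 4 are filled in HCT116 and 21 in SW480, where SLC2A3 lies far to the left at −3.99 and VEGFA far to the right at 2.28.

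The promoters of 4 members are shown, chosen after the genes' values were seen. *SLC2A1* and *PFKFB4* are the DEGs with a sequence, and *HK2* and *LDHA* passed in SW480 in opposite directions. They are the 250 bases before the RefSeq start of each gene in build GRCh38.p14, written 5′ to 3′ on the gene's strand, whereas the deposited counts were made on GRCh37. Capitals mark the hypoxia-response core, read as ACGTG or GCGTG on either strand, where matches on both strands can overlap. The windows are chr1:42958869-42959118, minus strand for *SLC2A1*, chr2:74833877-74834126, plus strand for *HK2*, chr3:48556804-48557053, minus strand for *PFKFB4* and chr11:18394313-18394562, plus strand for *LDHA*.
SLC2A1: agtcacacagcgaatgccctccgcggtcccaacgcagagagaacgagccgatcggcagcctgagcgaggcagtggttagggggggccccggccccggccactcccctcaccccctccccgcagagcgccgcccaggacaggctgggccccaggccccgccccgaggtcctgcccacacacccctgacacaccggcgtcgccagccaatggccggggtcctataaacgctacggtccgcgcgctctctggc
HK2: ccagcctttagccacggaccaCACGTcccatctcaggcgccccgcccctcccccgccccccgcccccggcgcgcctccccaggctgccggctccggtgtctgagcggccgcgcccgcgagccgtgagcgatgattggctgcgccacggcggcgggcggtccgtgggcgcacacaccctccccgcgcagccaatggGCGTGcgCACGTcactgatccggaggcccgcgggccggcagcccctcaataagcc
PFKFB4: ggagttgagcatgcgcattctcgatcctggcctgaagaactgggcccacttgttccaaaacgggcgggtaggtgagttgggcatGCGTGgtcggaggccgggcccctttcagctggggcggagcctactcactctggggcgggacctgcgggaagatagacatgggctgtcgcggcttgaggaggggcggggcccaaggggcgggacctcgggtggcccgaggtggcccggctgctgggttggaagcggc
LDHA: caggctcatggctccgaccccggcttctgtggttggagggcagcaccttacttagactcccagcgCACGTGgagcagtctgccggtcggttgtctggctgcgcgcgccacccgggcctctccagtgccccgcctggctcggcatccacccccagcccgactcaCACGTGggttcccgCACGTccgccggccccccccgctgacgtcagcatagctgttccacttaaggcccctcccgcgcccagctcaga

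The *HK2* window holds the core 3 times, beginning 229, 55 and 48 bases before the start, *PFKFB4* holds it once at 166 bases, and *LDHA* holds it 5 times at 185, 184, 87, 86 and 73 bases, of which the first pair and the second pair are overlapping matches on opposite strands. The *SLC2A1* window does not hold these letters. Among the 30 members with a RefSeq entry, 17 (56.7%) held the core, against 43.1% of 27305 promoters of the same length. The TCF/LEF letters CTTTGAT or CTTTGAA, on either strand, were in none of the 30 windows and in 6.03% of all promoters. In SW480 the core was in 6 of 12 windows of members that rose, 3 of 5 of members that fell and 7 of 12 of members that did not pass. *SLC2A3*, *SLC16A1*, *VEGFA* and *NDRG1* had no entry.

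Of the glucose transporters, *SLC2A1* passed as lower in KO clones of HCT116 and SW480, and *SLC2A3* in those of SW480 only. *SLC2A1* (GLUT1; GRCh37 chr1:43391024-43424564), the widely expressed basal glucose transporter, fell in HCT116 and was the only member DEG there. Its values in the HCT116 libraries, rounds A and B, were 8618 and 6271 in WT 4, 10974 and 9733 in WT 6, 3384 and 2663 in KO 44, and 2168 and 2489 in KO 47. The highest KO library stood at 3384 and the lowest WT library at 6271. The means were 8899 ± 1999 in WT and 2676 ± 515 in KO libraries (SD, n = 4), a log2 fold change of −1.72 (SE 0.18, adjusted p = 1.1e-04) by limma. The change was −1.84 in round A and −1.60 in round B, and it passed under all 22 alternatives.

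In SW480, where *SLC2A1* was higher than in the other lines, its values were 36697 and 33057 in WT 4, 30813 and 29473 in WT 5, 25579 and 25666 in KO 17, and 30204 and 27608 in KO 21. The genotypes overlapped, since KO 21A was above WT 5B. *SLC2A1* fell by a smaller amount there, with 32510.1 ± 3159 in WT and 27264 ± 2172 in KO libraries and a log2 fold change of −0.25 (SE 0.085, adjusted p = 0.0308) by limma. That call was lost without WT 4A, WT 4B, KO 17A, KO 17B or KO 21B, with adjusted p from 0.0568 to 0.0847, and with clones as a random effect (0.0825). In HT29 the values of *SLC2A1* were 14972 and 11569 in WT 11, 17139.8 and 15148 in WT 40, 17870.4 and 14424 in KO 28, and 14007 and 8262 in KO 38, and KO and WT libraries overlapped over most of their range. The log2 fold change there was −0.15 (SE 0.24, adjusted p = 0.789), with a 95% confidence interval of −0.70 to 0.41.

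*SLC2A3* (GLUT3; GRCh37 chr12:8071826-8171603), a high-affinity glucose transporter best known from neurons, had the largest log2 fold change of any member, in SW480. Its SW480 values were 44103 and 45960.3 in WT 4, 33537 and 39423 in WT 5, 2365 and 2066 in KO 17, and 2898 and 2965 in KO 21. Every WT library was at 33537 or more and every KO library at 2965 or less. The means were 40756 ± 5543 in WT and 2573 ± 432 in KO libraries, a log2 fold change of −3.99 (SE 0.13, adjusted p = 1.0e-08) by limma, and the KO mean was 6.31% of the WT mean. The change was −3.88 in round A and −4.10 in round B. Per kilobase of exon, *SLC2A3* in SW480 WT clones (a mean level of 5619.9) stood beside *SLC2A1* at 4915, and in KO clones it was at 355 beside 4122. The ratio of *SLC2A3* to *SLC2A1* counts within a library went from 1.25 ± 0.136 in WT to 0.0941 ± 0.0111 in KO libraries.

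*SLC2A3* was low in the other 2 lines. In HCT116 its values were 68.8 and 54.8 in WT 4, 25.9 and 43.8 in WT 6, 31.4 and 31.1 in KO 44, and 6.42 and 3.81 in KO 47. KO 47 held the lowest values, and KO 44 overlapped with WT 6. The log2 fold change was −1.74 (SE 0.62, adjusted p = 0.0850) by limma, which did not pass. In HT29 it lay at 0.960 to 15.0 in WT and 3.79 to 6.03 in KO libraries and was not tested. The neighbouring gene *SLC2A14*, nearly identical in sequence and named here after its values were seen, was at 143 to 203 in SW480 WT and 12.2 to 24.3 in SW480 KO libraries and at most 1.90 elsewhere, and how reads were divided between the genes was not tested.

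**Figure D2:**
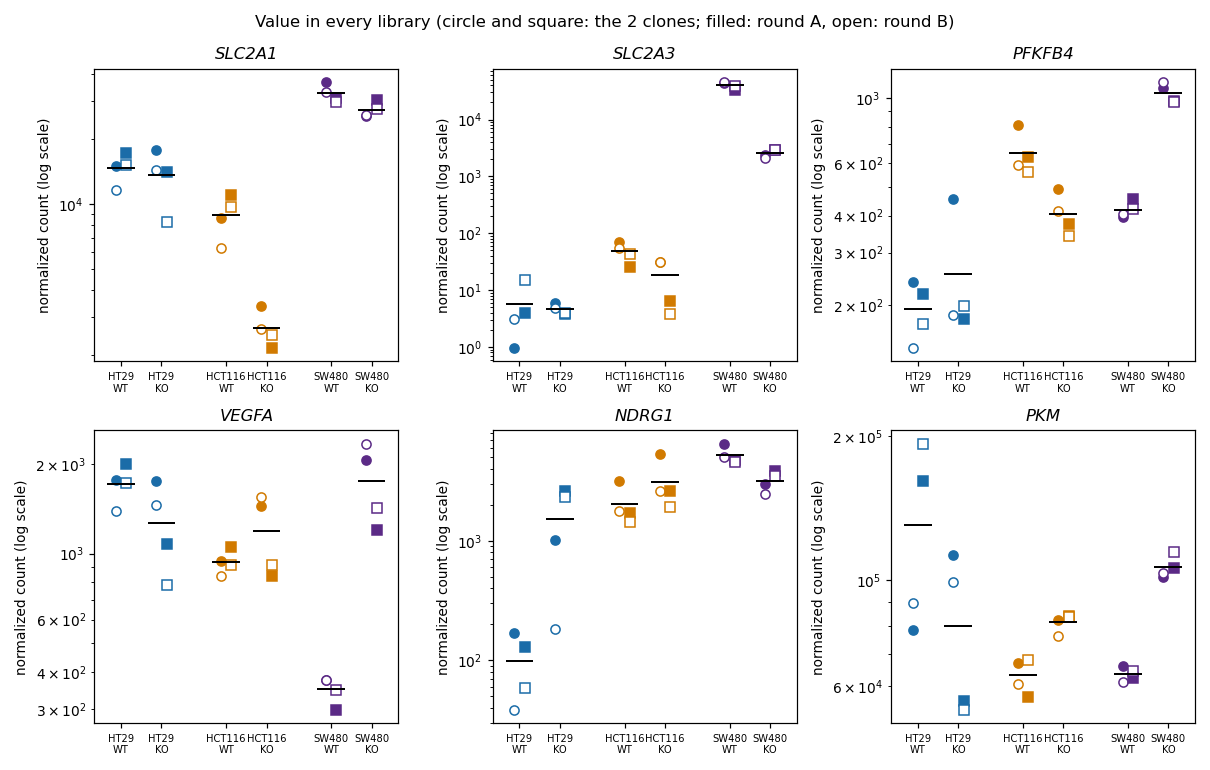
Size-factor-divided counts (log axis) of SLC2A1, SLC2A3, PFKFB4, VEGFA, NDRG1 and PKM in each library by line and genotype. Circles and squares are the 2 clones of a group, filled for round A and open for round B, and in SW480 the KO libraries of SLC2A3 lie below, and those of PFKFB4, VEGFA and PKM above, every WT library.

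The lactate transporters moved in opposite directions in SW480. *SLC16A1* (MCT1), which carries lactate and pyruvate in either direction, fell in 2 lines. In HCT116 it went from 8521 ± 1169 in WT to 5877 ± 406 in KO libraries (log2 fold change −0.53, SE 0.11, adjusted p = 0.00916) and in SW480 from 8854 ± 766 to 5327 ± 784 (log2 fold change −0.74, SE 0.11, adjusted p = 2.5e-04), by limma. Both comparisons showed every KO library below every WT library. With clone means as the samples, the HCT116 call was lost (adjusted p = 0.124). In HT29 *SLC16A1* had means of 4666 ± 808 in WT and 5021 ± 1248 in KO, with overlapping libraries and a log2 fold change of 0.088 (SE 0.22, adjusted p = 0.862).

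*SLC16A3* (MCT4), the transporter that exports lactate from glycolytic cells, rose in SW480 from 3282 ± 310 to 4651 ± 256 (log2 fold change 0.51, SE 0.078, adjusted p = 4.0e-04 by limma), with every KO library above every WT library. In HCT116 the libraries did not overlap either, at 7487 to 9665 in WT and 9752 to 10897 in KO, and the log2 fold change of 0.32 (SE 0.10, adjusted p = 0.0549) did not pass. With the rounds of HCT116 as a replicate block it passed (adjusted p = 0.0389). In HT29 the means were 1958 ± 642 in WT and 4213 ± 1732 in KO libraries with a log2 fold change of 1.07 (SE 0.33, adjusted p = 0.148), and the ranges overlapped. The gene shares exon sequence with *CSNK1D* on the other strand, and the kit does not mark strand.

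In upper glycolysis, the fructose-2,6-bisphosphate enzyme *PFKFB4* passed in 2 lines with opposite signs. PFKFB enzymes make and remove the strongest known activator of phosphofructokinase, and *PFKFB4* (GRCh37 chr3:48555117-48599448) is induced by hypoxia in many cells. In SW480 its values were 394 and 406 in WT 4, 454 and 419.9 in WT 5, 1082 and 1132 in KO 17, and 975 and 967 in KO 21. The lowest KO library, KO 21B, stood above the highest WT library, WT 5A. The means of 418 ± 25.7 in WT and 1039 ± 81.3 in KO libraries gave a log2 fold change of 1.31 (SE 0.085, adjusted p = 7.5e-07) by limma, with 1.28 in round A and 1.34 in round B.

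In HCT116 the values of *PFKFB4* were 811 and 595 in WT 4, 631 and 559.8 in WT 6, 492 and 414 in KO 44, and 376 and 341 in KO 47. Here every KO library was below every WT library, and round A was above round B in each of the 4 clones. *PFKFB4* fell from 649 ± 112 to 406 ± 65.1 (log2 fold change −0.68, SE 0.16, adjusted p = 0.0162 by limma), with −0.73 in round A and −0.62 in round B. The call was lost with clones as a random effect (adjusted p = 0.0583). In HT29 the values were 239 and 143 in WT 11, 217 and 172 in WT 40, 457 and 184 in KO 28, and 179 and 198 in KO 38, and KO 28A alone was above every WT library. The log2 fold change of 0.31 (SE 0.34, adjusted p = 0.676) did not pass. The exons of *PFKFB4* overlap those of *UCN2* on the same strand.

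The other PFKFB gene on the list, *PFKFB3*, rose in SW480 from 578 ± 57.7 to 876 ± 89.1 (log2 fold change 0.60, SE 0.10, adjusted p = 7.0e-04 by limma), with every KO library above every WT library. Its log2 fold changes were −0.23 in HT29 and −0.17 in HCT116, and neither passed. Of the 3 phosphofructokinase subunits, which catalyse the committed step, 2 rose in SW480. *PFKP*, the platelet form, went from 2907 ± 313 to 4129 ± 641 (log2 fold change 0.50, adjusted p = 0.00515, limma). *PFKM*, the muscle form, rose by 0.22 (adjusted p = 0.0201, limma), a call lost without WT 4B (0.0583) or WT 5B (0.0612) and with clones as a random effect (0.110). *PFKL*, the liver form, had means of 3561 ± 316 in WT and 3557 ± 221 in KO, with a 95% confidence interval of the log2 fold change of −0.18 to 0.18. No subunit passed in HT29 or HCT116.

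The hexokinases, which phosphorylate glucose on entry, moved apart in SW480. *HK2*, the inducible form, fell from 1849 ± 388 to 934 ± 68.8 (log2 fold change −0.96, SE 0.14, adjusted p = 2.7e-04 by limma), with WT libraries at 1372 to 2186 and KO libraries at 869.8 to 1023. *HK1*, the constitutive form, rose from 3393 ± 203 to 4033 ± 118 (log2 fold change 0.25, SE 0.064, adjusted p = 0.00856 by limma). The ratio of *HK2* to *HK1* counts within a library was 0.550 ± 0.138 in WT and 0.232 ± 0.0159 in KO libraries of SW480, without overlap, and the same ratio overlapped between genotypes in HT29 and HCT116. The *HK1* call was lost with clones as a random effect (adjusted p = 0.0578). In HT29 and HCT116 the log2 fold changes of *HK2* were 0.36 and 0.087, those of *HK1* were 0.0066 and −0.20, and none of them passed.

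Of the remaining upper enzymes, *GPI*, which turns glucose-6-phosphate into fructose-6-phosphate, fell in SW480 from 16372 ± 738 to 13815 ± 373 (log2 fold change −0.24, SE 0.058, adjusted p = 0.00593 by limma). The minor aldolase gene *ALDOC* rose in SW480 from 96.0 ± 22.0 to 194 ± 61.0 (log2 fold change 0.98, SE 0.24, adjusted p = 0.00691 by limma). The main aldolase gene *ALDOA* and the triose isomerase gene *TPI1* did not pass in any line, with log2 fold changes from −0.17 to 0.17. *GPI* and *ALDOC* did not pass in HT29 or HCT116. In SW480, 6 of the 11 upper members rose, 2 fell and 3 did not pass, where 26.1% of all genes rose and 22.1% fell.

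In lower glycolysis, *PKM* (GRCh37 chr15:72491370-72524160), the pyruvate kinase gene whose M2 splice form is typical of tumour cells, rose in 2 lines. Reads were counted per gene, so the splice forms cannot be told apart. In SW480 *PKM* lay at 61166 to 66089 in WT and 101510 to 114220 in KO libraries, with 63515 ± 2174 in WT and 106246 ± 5581 in KO libraries on average and a log2 fold change of 0.74 (SE 0.060, adjusted p = 3.8e-06) by limma. In HCT116 it rose from 63109 ± 5327 to 81574 ± 3554 (log2 fold change 0.37, SE 0.086, adjusted p = 0.0153 by limma), again without overlap between the genotypes. The HCT116 call was lost without WT 4B (adjusted p = 0.0514) or WT 6A (0.0565), with clones as a random effect (0.0760) and with clone means (0.108). In HT29 the mean was lower in KO libraries, at 80141 ± 30052 against 130404 ± 55362, with a log2 fold change of −0.68 (SE 0.36, adjusted p = 0.390) that did not pass. Both genotypes of HT29 spread widely, with WT libraries at 78417 to 192819 and KO libraries at 53420.3 to 112564.

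*PGK1*, which makes the first ATP of the pathway, rose in SW480 from 18401 ± 691 to 21471 ± 187 (log2 fold change 0.22, SE 0.055, adjusted p = 0.00667 by limma). *ENO2*, the neuronal enolase, fell there from 2258 ± 353 to 1693 ± 198 (log2 fold change −0.41, SE 0.13, adjusted p = 0.0211 by limma), with overlapping libraries. The *ENO2* call was lost without WT 4A (0.0628), WT 5A (0.0643) or KO 21A (0.0504), and with clones as a random effect (0.107). The phosphoglycerate mutase gene *PGAM1*, the main enolase gene *ENO1* and *GAPDH* did not pass in any line. *GAPDH*, often used to normalise qRT-PCR, had WT means of 60966 ± 9544, 68089 ± 10708 and 69819.7 ± 1532 in HT29, HCT116 and SW480, and KO means of 47824 ± 17058, 87679 ± 9650.03 and 76695 ± 8829. Its log2 fold changes, −0.42, 0.37 and 0.13, had 95% confidence intervals, not adjusted for the number of genes, of −1.07 to 0.23, 0.098 to 0.65 and −0.053 to 0.31. The 65 pseudogenes named for *GAPDH* held 2.10% of the reads counted for the gene and its pseudogenes together.

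At the pyruvate branch point, the muscle-type lactate dehydrogenase gene *LDHA*, which favours lactate production, rose in SW480 from 42927 ± 4004 to 55176 ± 4306 (log2 fold change 0.36, SE 0.084, adjusted p = 0.00493 by limma), with every KO library above every WT library. The heart-type gene *LDHB* did not pass there, with means of 23656 ± 912 in WT and 22922 ± 1238 in KO libraries. The ratio of *LDHA* to *LDHB* counts within a library was 1.81 ± 0.131 in WT and 2.42 ± 0.307 in KO libraries of SW480, without overlap. In HT29 and HCT116 the ratios overlapped, and the log2 fold changes of *LDHA* were −0.31 and −0.31, which did not pass. In HT29, KO 38B held 77846 for *LDHB*, against 29317 to 35661 in the other KO libraries, and KO 28B held 24786 for *LDHA*, against 37790 to 39449.

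The PDK kinases inhibit pyruvate dehydrogenase and so hold pyruvate out of the mitochondrial pathway. *PDK1*, a HIF-1 target, rose in SW480 from 518 ± 62.0 to 683 ± 119 (log2 fold change 0.39, SE 0.13, adjusted p = 0.0319 by limma), with overlapping libraries. The call was lost without WT 4B, WT 5A, WT 5B, KO 17A or KO 17B, with adjusted p from 0.0655 to 0.0812, and with clones as a random effect (0.107). In HCT116 the log2 fold change of *PDK1* was 0.53 (SE 0.26, adjusted p = 0.194) by limma, and with the rounds as a replicate block it passed (adjusted p = 0.0465). *PDK2* was higher in every KO than in every WT library of HT29, at 502 to 814 against 296 to 499.7, and the log2 fold change of 0.58 (SE 0.24, adjusted p = 0.277) did not pass. *PDK3* and *PDK4* did not pass in any line, with log2 fold changes from −0.86 for *PDK3* in HT29 to 0.35 for *PDK4* in HCT116.

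Among the hypoxia-response members, *VEGFA* (GRCh37 chr6:43737921-43754224), the growth factor that draws in blood vessels and a classic HIF target, rose in SW480. Its values there were 377 and 375 in WT 4, 298 and 346 in WT 5, 2059.9 and 2339 in KO 17, and 1199.9 and 1427 in KO 21. All KO libraries lay above all WT libraries, and both rounds of KO 17 lay above both rounds of KO 21. The means were 349 ± 36.7 in WT and 1756 ± 532 in KO libraries, with a log2 fold change of 2.28 (SE 0.20, adjusted p = 7.5e-06) by limma, 2.23 in round A and 2.34 in round B. In HCT116 the values were 940.3 and 841 in WT 4, 1053 and 914 in WT 6, 1442 and 1551 in KO 44, and 840.3 and 912 in KO 47. KO 44 was above every WT library there and KO 47 was within or below their range, and the log2 fold change of 0.29 (SE 0.19, adjusted p = 0.345) did not pass. In HT29 the values were 1760.02 and 1395 in WT 11, 1994 and 1727 in WT 40, 1759 and 1461 in KO 28, and 1076 and 783 in KO 38, with a log2 fold change of −0.49 (SE 0.26, adjusted p = 0.380) and overlapping libraries. Summed endothelial markers were at 116 to 234 in SW480 KO and 9.65 to 27.4 in SW480 WT libraries. *CDH5* was at or under 3 reads in both and *PECAM1* was not among the genes counted, so the sum was mostly *VWF*. The libraries come from clones of a carcinoma line, and the relation of *VWF* to *VEGFA* was not tested.

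*NDRG1*, a stress gene induced by hypoxia and in differentiating colon epithelium, fell in SW480 and had its largest difference in HT29, and its libraries are given one by one after those values were seen. In HT29 they were 168 and 38.5 in WT 11, 128 and 58.9 in WT 40, 1008 and 184 in KO 28, and 2596 and 2304 in KO 38. Every KO library was above every WT library, with KO 28B the lowest KO library. The log2 fold change was 3.60 (SE 0.83, adjusted p = 0.0629) by limma, 3.45 in round A and 3.75 in round B, and did not pass. It passed with edgeR's quasi-likelihood test (adjusted p = 0.0480), with DESeq2 (1.5e-06) and without KO 28B (0.0116), and with clone means as the samples the adjusted p was 0.631. In SW480 the values were 6474 and 5032 in WT 4, 4751 and 4591 in WT 5, 2994 and 2443 in KO 17, and 3823 and 3464 in KO 21. There every KO library was below every WT library, and *NDRG1* fell by 0.72 on the log2 scale (adjusted p = 0.00273, limma). In HCT116 the log2 fold change was 0.58 (SE 0.34, adjusted p = 0.289), which did not pass.

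*HIF1A*, the oxygen-regulated subunit of HIF-1, is controlled mainly through its protein, and its RNA rose in SW480 from 5393 ± 345 to 7155 ± 452 (log2 fold change 0.41, SE 0.071, adjusted p = 8.8e-04 by limma), without overlap. In HT29 it was lower in KO libraries, at 2319 ± 677 against 3751 ± 880.4 (log2 fold change −0.72, SE 0.28, adjusted p = 0.241, not passed), with KO 38B at 1309 and the other KO libraries at 2567 to 2749. *EGLN3*, a HIF prolyl hydroxylase that is itself induced by hypoxia, fell in SW480 from 374 ± 27.6 to 279 ± 54.8 (log2 fold change −0.44, SE 0.14, adjusted p = 0.0217 by limma). That call was lost without WT 4A (0.0639), KO 17A (0.0567) or KO 17B (0.0568), and with clones as a random effect (0.0802). Of these members, *VEGFA* and *HIF1A* thus rose and *EGLN3* and *NDRG1* fell in SW480.

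*BNIP3*, which directs mitochondria to autophagy under hypoxia, had means of 1819 ± 308 in WT and 1344 ± 265 in KO libraries of HCT116 and was low in the other lines, at 50.1 to 60.8 in HT29 WT and 23.5 to 34.7 in SW480 WT libraries. Its log2 fold change in HCT116, −0.44 (SE 0.17, adjusted p = 0.104) by limma, did not pass, and with the rounds as a replicate block it did (adjusted p = 0.0457). *CA9*, the acid-exporting carbonic anhydrase often used as a marker of hypoxia, lay at 160.3 to 1581 in WT and 192 to 2110.2 in KO libraries of HT29, where the log2 fold change was 0.27 (SE 0.90, adjusted p = 0.902). It was at most 56.0 in HCT116 and 33.6 in SW480. *ADM*, the vasodilator peptide adrenomedullin, did not pass in any line, with log2 fold changes of 0.43, −0.33 and −0.0086 in HT29, HCT116 and SW480. The 44 pseudogenes named for *BNIP3* held 4.26% of the reads of the gene and its pseudogenes together.

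The KO effects of the lines were set against each other in 1 fit of all 24 libraries, as the effect in the second line minus that in the first. Of 34 members, 3 differed between HT29 and HCT116, 12 between HT29 and SW480 and 5 between HCT116 and SW480, against 7.25%, 15.8% and 13.2% of all genes. The 3 comparisons share the libraries of each line. *SLC2A3* and *CA9* are among the 34 but had too few reads in at least 1 line to be tested there. Of the members tested in both lines compared, 3 of 32, 11 of 32 and 5 of 33 passed, against 7.56%, 14.5% and 12.5% of all such genes. *SLC2A1* separated HCT116 from the other lines, with differences of −1.57 (SE 0.27, adjusted p = 7.6e-04) from HT29 to HCT116 and 1.47 (SE 0.27, adjusted p = 6.2e-04) from HCT116 to SW480, by limma. *VEGFA* separated SW480 from both, with 2.77 (SE 0.33, adjusted p = 2.6e-06) from HT29 and 1.99 (SE 0.33, adjusted p = 2.0e-04) from HCT116. *PFKFB4*, which rose in SW480 and fell in HCT116, differed by 1.98 (SE 0.32, adjusted p = 1.2e-04) between them. These 5 differences passed under all 25 alternatives.

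*SLC2A3* is the one member that passed between HT29 and SW480 without a test in HT29, where libraries held 1 to 12 reads, and its value there is not read as a difference between the lines. Between HCT116 and SW480 it differed by −2.25 (SE 0.77, adjusted p = 0.0551, limma), which did not pass. *NDRG1* differed by −4.32 (SE 0.83, adjusted p = 7.4e-04) between HT29 and SW480 by limma. *PKM* and *HK2* also differed between these lines, by 1.42 (SE 0.32, adjusted p = 0.00343) and −1.32 (SE 0.25, adjusted p = 6.3e-04). *HIF1A*, lower in HT29 KO and higher in SW480 KO libraries, differed by 1.13 (SE 0.27, adjusted p = 0.00454), a call that was lost with clones as a random effect.

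Clones of 1 genotype differed among themselves in the members, and by different amounts in each line. Of the members' summed variance on the log2 scale in HT29, the genotypes accounted for 37.1%, clones within a genotype for 38.6% and rounds for 24.3%. In SW480 the genotypes accounted for 89.1% and the clones for 7.39%, and in HCT116 for 42.3% and 37.9%. Over all genes tested, genotypes and clones accounted for 31.8% and 51.4% in HT29, 79.1% and 13.4% in SW480, and 45.7% and 32.1% in HCT116. In such a sum the members with the largest differences weigh most. These were *NDRG1* in HT29 (log2 fold change 3.60), and *SLC2A3* (−3.99) and *VEGFA* (2.28) in SW480. The members' shares therefore need not hold for most of them. Both KO clone means lay above both WT clone means for 7 of the 33 members tested in HT29, 6 in HCT116 and 15 in SW480, where 20.3%, 23.8% and 34.4% of all genes did. They lay below for 6, 14 and 9, where 16.0%, 25.3% and 33.0% of all genes did. Without 1 of the 4 clones of a line, the HCT116 calls of *SLC16A1*, *PFKFB4* and *PKM* were lost at least once (adjusted p up to 0.0874, limma), and so were 10 of the 21 in SW480 (up to 0.246), which were *SLC2A1*, *HK1*, *PFKM*, *PFKP*, *ALDOC*, *PGK1*, *ENO2*, *LDHA*, *PDK1* and *EGLN3*. With clone means these calls and that of *GPI* in SW480 were lost.

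**Figure D3:**
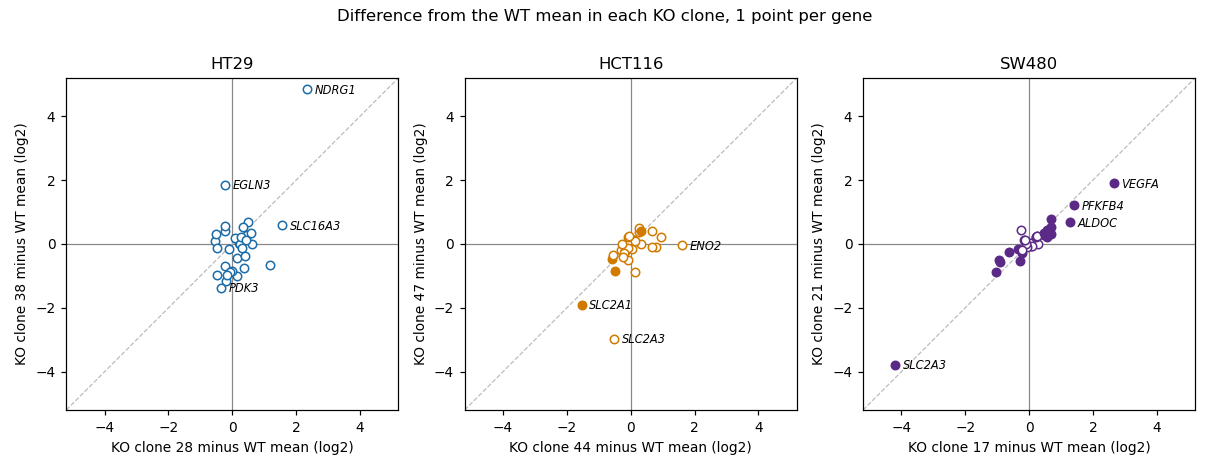
Difference from the WT mean on the log2 scale of each member in 1 KO clone (x axis) and in the other KO clone of the same line (y axis), 1 panel for each line. Filled points passed the test of genotype and the dashed line marks equal values. In SW480, SLC2A3 lies at −4.19 and −3.79 and VEGFA at 2.65 and 1.91 in KO 17 and KO 21, and in HT29 NDRG1 lies at 2.35 and 4.85 in KO 28 and KO 38.

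Between the KO clones, tested against the spread between rounds, 4 members passed in HT29, 3 in HCT116 and 10 in SW480, where 16.0%, 7.16% and 28.0% of all genes passed. In SW480 KO 21 minus KO 17 was −0.75 for *VEGFA* (adjusted p = 1.0e-04, limma) and 0.41 for *SLC2A3* (0.00181), both smaller in size than the KO effects of these genes. The other members that passed there were *SLC16A1*, *PFKP*, *ALDOC*, *GAPDH*, *LDHA*, *PDK1*, *EGLN3* and *NDRG1*. Without 1 of the KO libraries the call was lost for *ALDOC*, *LDHA*, *PDK1*, *EGLN3* and *NDRG1*, with the highest adjusted p of each, 0.383, 0.161, 0.343, 0.413 and 0.158, without KO 17A, KO 17B, KO 17A, KO 21A and KO 21A. In HCT116 KO 47 minus KO 44 was −2.43 for *SLC2A3*, −1.65 for *ENO2* and −0.77 for *VEGFA* (adjusted p = 0.00519, 0.00923 and 0.00681, limma). KO 44 was thus the higher clone for all 3, and the *VEGFA* call was lost without KO 44B (adjusted p = 0.0685) and the *ENO2* call without KO 44A (0.0773). In HT29 KO 38 was below KO 28 for *SLC16A3*, *HK1*, *GPI* and *PKM*, with differences of −0.98, −0.77, −1.16 and −0.95. Each of these calls was lost without KO 28A, with adjusted p from 0.0669 to 0.170, and without KO 38A 17 members passed.

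Between the WT clones, 3 members passed in HT29, none in HCT116 and 4 in SW480, where 9.02%, 2.61% and 8.88% of all genes passed. In HT29 WT 40 minus WT 11 was −2.73 for *CA9*, 1.07 for *PKM* and 0.82 for *SLC16A3* (adjusted p = 0.0420, 0.0168 and 0.0444, limma). The genotypes of HT29 differed by −0.68 for *PKM* and 1.07 for *SLC16A3*. None of the 3 calls held when any 1 of the WT libraries was left out, with adjusted p from 0.0893 to 0.295. In SW480 WT 5 minus WT 4 was −0.31 for *SLC2A3*, −0.51 for *HK2*, 0.54 for *PDK3* and −0.58 for *ADM*. Of these, *HK2* passed under all 16 alternatives, and the calls of *SLC2A3*, *PDK3* and *ADM* were lost without 1 WT library, with adjusted p up to 0.284 without WT 5A, 0.0690 without WT 5B and 0.146 without WT 5B. With the rounds as a replicate block, 9 members passed between the KO clones and 8 between the WT clones of HCT116, whose rounds deviated together.

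The rounds also differed in some members, a pattern noticed after the values were seen and given without a test. Whether a round letter stands for the same experiment in different lines is not stated. In HCT116 the clones of a round deviated together, so counts over the 12 clones are not counts of independent samples. *NDRG1* was higher in round A than in round B in 12 of 12 clones, and *ALDOC*, *ENO2* and *PDK1* were so in 11 of 12. These are 4 of the 32 members tested in all lines, where 0.591% of all genes were higher in round A in at least 11 of 12 clones, and no member was higher in round B that often (0.599% of all genes). For *NDRG1* the log2 difference A minus B was 2.10, 1.11, 2.45 and 0.17 in the HT29 clones WT 11, WT 40, KO 28 and KO 38. It was 0.84, 0.25, 1.05 and 0.43 in HCT116 (WT 4, WT 6, KO 44, KO 47) and 0.36, 0.049, 0.29 and 0.14 in SW480 (WT 4, WT 5, KO 17, KO 21). Within a line, 6 members in HT29, 8 in HCT116 and 4 in SW480 were higher in round A in all 4 clones, where 5.98%, 16.5% and 7.23% of all genes were. None, 1 and 3 were higher in round B in all 4 clones, where 5.67%, 19.5% and 7.31% of all genes were. Each round holds both genotypes, and the sign of the KO effect was the same in both rounds for 29, 31 and 28 of the 33 members tested in HT29, HCT116 and SW480. Both rounds hold the same clones, so a difference between clones repeats its sign as well. The share of all genes with the same sign was not counted, and these counts are not read as results about the members. *HIF1A* was the one member that was higher in round B in all 4 clones of both HCT116 and SW480.

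**Figure D4:**
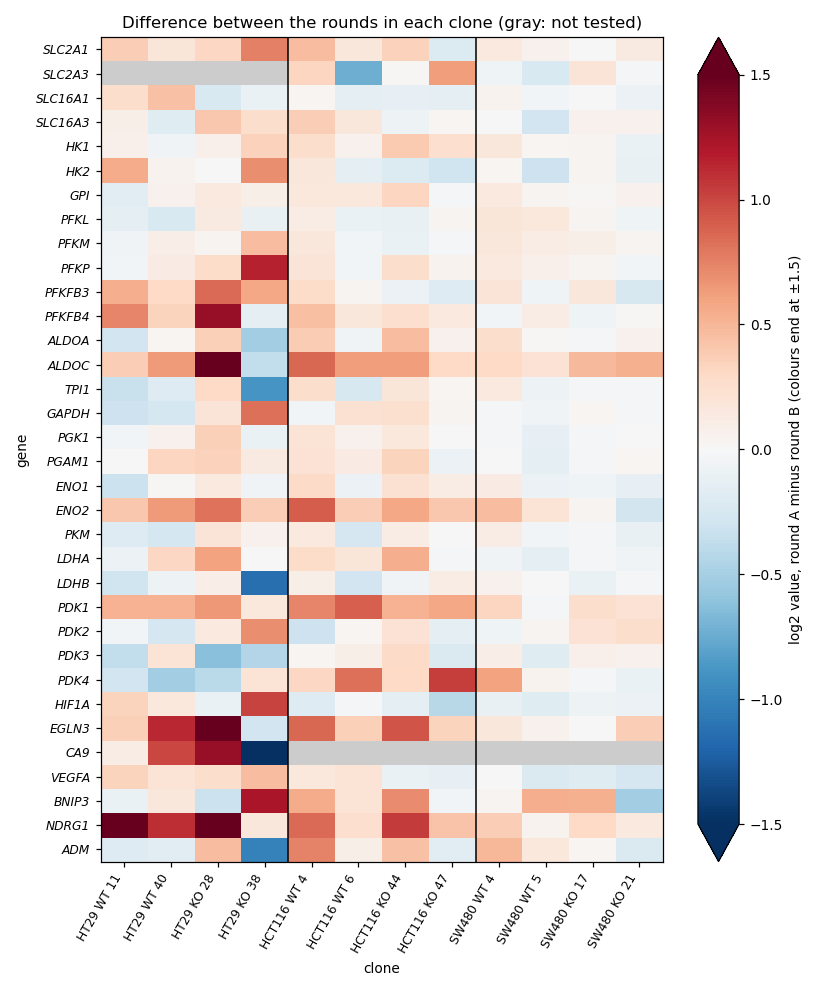
Log2 difference of round A minus round B for each member (rows) in each of the 12 clones (columns), on a colour scale with gray for members not tested in a line. The row of NDRG1 is above 0 in all 12 clones, and those of ALDOC, ENO2 and PDK1 in 11.

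Other genes of the same pathways were counted from lists chosen with earlier results known. Of the other genes of glycolysis and pyruvate use, 1 of 22 tested rose and none fell in HT29, 2 rose and 3 fell of 24 in HCT116, and 6 rose and 6 fell of 22 in SW480. Of gluconeogenesis genes, none of 4 passed in HT29, 1 of 3 rose in HCT116, and 2 rose and 2 fell of 4 in SW480. Beside these lists, 2.08%, 8.05% and 26.1% of all genes rose and 0.476%, 5.93% and 22.1% fell in HT29, HCT116 and SW480. *PC*, the pyruvate carboxylase that feeds gluconeogenesis and the citric acid cycle, rose from 222 ± 34.1 in WT to 929 ± 357 in KO libraries (log2 fold change 1.99, adjusted p = 4.5e-04) in HCT116, and from 677 ± 55.7 in WT to 2952 ± 361 in KO libraries (log2 fold change 2.12, adjusted p = 8.1e-08) in SW480, by limma. *FBP1*, which reverses the phosphofructokinase step, rose in SW480 from 18.7 ± 4.59 in WT to 320.5 ± 112 in KO libraries (log2 fold change 3.99, adjusted p = 1.2e-06). *PDP1*, the phosphatase that undoes the work of the PDK kinases, fell in HCT116 from 26339.9 ± 4058 in WT to 8387 ± 4167 in KO libraries (log2 fold change −1.78, adjusted p = 0.00871) and in SW480 from 9828 ± 1099.8 in WT to 3937 ± 747 in KO libraries (log2 fold change −1.33, adjusted p = 2.0e-05). The HCT116 call of *PDP1* was lost without the clone WT 6 (0.0829) and with clone means (0.302). *SLC2A10*, another glucose transporter gene, rose in HT29 from 9.49 ± 6.55 in WT to 205 ± 142 in KO libraries (log2 fold change 4.23, adjusted p = 0.0152), a call lost without WT 11A (0.0546) or KO 28A (0.0577). The *SLC2A10* call was also lost with clone means and without the clone WT 11 (up to 0.602, limma).

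In the HIF pathway, 1 of 6 genes rose in HT29, 1 rose and 1 fell of 7 in HCT116, and 2 rose and 3 fell of 7 in SW480, where 2.56%, 14.0% and 48.1% of all genes passed. *EPAS1*, which encodes HIF-2α, was a DEG in all 3 lines, and its direction was not the same in each. It rose in HT29 from 648 ± 162 in WT to 2058 ± 902 in KO libraries (log2 fold change 1.62, adjusted p = 0.0313) and in HCT116 from 998 ± 182 in WT to 2756 ± 483 in KO libraries (log2 fold change 1.46, adjusted p = 1.4e-04), and it fell in SW480 from 12476 ± 1246 in WT to 2557 ± 743 in KO libraries (log2 fold change −2.33, adjusted p = 4.7e-06), by limma. The HT29 call of *EPAS1* was lost when any 1 library but KO 38B was left out, with adjusted p from 0.0520 to 0.0835. It was also lost with clones as a random effect, with clone means and without the clone WT 11 or WT 40 (up to 0.527, limma). *ARNT2*, a partner subunit of HIF proteins, fell in SW480 from 327 ± 22.4 in WT to 56.0 ± 8.34 in KO libraries (log2 fold change −2.54, adjusted p = 2.8e-07). Of the other hypoxia-response genes, 1 of 33 rose in HT29, 6 rose and 2 fell of 35 in HCT116, and 19 rose and 8 fell of 36 in SW480, beside 26.1% of all genes that rose and 22.1% that fell there. In HCT116 *DDIT4*, *KLF7* and *PLOD2* were DEGs, and *DDIT4*, which restrains mTOR under stress, rose from 512 ± 169 in WT to 4140.2 ± 2752 in KO libraries (log2 fold change 2.79, adjusted p = 0.0121), a call lost without the clone WT 4 (0.0546) or WT 6 (0.0732) and with clone means (0.301). In SW480 *ANGPTL4*, a lipase inhibitor, rose from 81.4 ± 64.4 in WT to 2765 ± 469 in KO libraries (log2 fold change 5.31, adjusted p = 4.7e-06), *CA12*, a membrane carbonic anhydrase, rose from 16.8 ± 4.66 in WT to 188 ± 50.5 in KO libraries (log2 fold change 3.42, adjusted p = 2.8e-06), and *RORA*, a nuclear receptor, fell from 2308 ± 229 in WT to 135 ± 5.02 in KO libraries (log2 fold change −4.08, adjusted p = 1.3e-09).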

How the data were processed

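The 24 libraries were made with the TruSeq RNA v2 kit, which does not mark strand, and sequenced as paired ends by a service provider. The submitters' processing notes name GRCh37, STAR 2.7.5b (alignment), featureCounts 2.0.1 (counting) and DESeq2 2.11.40.6. The deposited signal values are gene counts divided by 1 size factor for each library, and multiplying back gave whole reads for 100% of values (tolerance 0.01). A symbol was found for 70.4% of 58051 Ensembl identifiers. Deposited lists of the authors' own fold changes and p-values were not used. The members and lists were chosen with earlier results of these data known.

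Genotypes were compared within each line, as by the authors, with limma 3.58.1 (R 4.3.3, trend and robust variances) on log2(value + 1) for genes with at least 10 in at least 4 of 8 libraries, and p-values were adjusted by Benjamini-Hochberg over all genes tested. Line differences were interaction contrasts in a fit of all 24 libraries (at least 10 in at least 4), and clones were compared in fits of 4 clones, whose error is between rounds. limma, edgeR and DESeq2 were tested on simulated data. DEGs also had an absolute log2 fold change over 1. Fold changes on this scale understate the change of genes with low values. Because values divided by size factors are not raw counts, edgeR 4.0.16 (327, 2214 and 7847 genes called in HT29, HCT116 and SW480) and DESeq2 1.42.0 on the recovered reads were alternatives, beside pseudocounts of 0.1 and 5, other filters, TMM scaling, the round as a replicate block, clones as random effects or means, and leaving out libraries or clones. In HCT116 the round letters paired the samples, since all 6 pairs of clones deviated together (correlations of 0.182 to 0.374). The rounds come from separate experiments on the same clones, so p-values measure the spread between rounds and clones.

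Every member is named, in order of role. The value in each library is given for DEGs in at least 1 line and members passing in all 3, and for *NDRG1* by choice after its values were seen. From the other lists, at most the 3 DEGs of a list and line with the largest change and a mean of at least 100 are named. Motifs were searched in RefSeq promoter sequences.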

Additional observations from a re-analysis of the deposited data

Results flagged for a closer look

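In 10 of 198 groups of 4 libraries, 1 library lay far from the other 3, where the gap to its neighbour over the range of the group exceeded Dixon's 95% critical value. Chance gives about 1 in 20 groups. In HT29 WT, *ALDOA* was lowest in 11A at 34743 against 41548 to 42565 (ratio 0.87), and *PGAM1* was lowest in 40B at 5755 against 6941 to 7181 (ratio 0.832). In HT29 KO, *PFKFB4* was highest in 28A at 457 against 179 to 198 (ratio 0.931), and *LDHA* was lowest in 28B at 24786 against 37789.6 to 39449 (ratio 0.887). Library KO 38B of HT29 held a pair of these values, *LDHB* at 77846 against 29317 to 35661 (ratio 0.869) and *HIF1A* at 1309 against 2567 to 2749 (ratio 0.874). In HCT116 WT, *ADM* was lowest in 4B at 658 against 1106 to 1177 (ratio 0.864). In SW480 WT, *SLC16A3* was highest in 5B at 3742 against 3062 to 3166 (ratio 0.847), *HK1* was lowest in 4B at 3093 against 3469 to 3537 (ratio 0.847), and *PDK1* was highest in 4A at 610.5 against 483 to 490.3 (ratio 0.94).

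The KO effect differed between 2 lines in 20 of 102 tests on the members (limma, adjusted p under 0.05 over all genes). Of all genes, 7.25% differed between HT29 and HCT116, 15.8% between HT29 and SW480 and 13.2% between HCT116 and SW480. The comparisons share the libraries of each line, so the tests are not independent. They include *SLC2A3* and *CA9*, which had too few reads in at least 1 line. From HT29 to HCT116 the difference was −1.57 for *SLC2A1*, −0.82 for *PDK2* and −3.02 for *NDRG1* on the log2 scale. From HT29 to SW480 it was negative for *SLC16A1* (−0.83), *HK2* (−1.32), *PDK2* (−0.80) and *NDRG1* (−4.32). The value of *SLC2A3* (−4.15) is counted among these tests, but the gene had 1 to 12 reads in HT29 libraries and was not tested there, so it is not read as a difference between the lines. It was positive for *PFKM* (0.68), *PFKFB4* (1.00), *PKM* (1.42), *LDHA* (0.67), *PDK3* (1.12), *HIF1A* (1.13) and *VEGFA* (2.77). From HCT116 to SW480 it was 1.47 for *SLC2A1*, −1.05 for *HK2*, 1.98 for *PFKFB4*, 0.67 for *LDHA* and 1.99 for *VEGFA*.

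Leaving out 1 library ended some of these calls, with the adjusted p given in brackets. Between HT29 and HCT116 this held for *NDRG1* without HT29 WT 11B, HT29 WT 40B, HT29 KO 38A, HT29 KO 38B, HCT116 WT 4A, HCT116 KO 44B or HCT116 KO 47B (0.0518 to 0.0655) and for *PDK2* without HT29 WT 40A, HT29 WT 40B, HT29 KO 38A, HCT116 WT 4B, HCT116 WT 6A or HCT116 KO 44B (0.0510 to 0.0653). Between HT29 and SW480 it held for *PFKFB4* without HT29 WT 11A, HT29 WT 40A, HT29 KO 28B, HT29 KO 38A, HT29 KO 38B, SW480 WT 4A, SW480 WT 4B, SW480 WT 5B, SW480 KO 17A or SW480 KO 17B (0.0560 to 0.0761), for *PDK3* without HT29 WT 40A, HT29 KO 38A, SW480 WT 4A or SW480 WT 4B (0.0538 to 0.0629) and for *LDHA* without HT29 WT 40A, HT29 KO 28B, SW480 WT 5A, SW480 WT 5B, SW480 KO 17A or SW480 KO 17B (0.0574 to 0.0733). Between HCT116 and SW480 it held for *LDHA* without HCT116 WT 4A, HCT116 WT 6A, HCT116 KO 44B, HCT116 KO 47A, HCT116 KO 47B, SW480 WT 4A, SW480 WT 5A, SW480 WT 5B, SW480 KO 17A, SW480 KO 17B or SW480 KO 21B (0.0506 to 0.0854).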

How the results depend on the processing

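In the comparisons of genotype, line and clone, no member that passed changed sign under any alternative. The members that passed under every alternative were *SLC2A1* in HCT116 and 10 of the 21 in SW480, *SLC2A3*, *SLC16A1*, *SLC16A3*, *HK2*, *PFKFB3*, *PFKFB4*, *PKM*, *HIF1A*, *VEGFA* and *NDRG1*. The other counts moved by more than 1.5 times in the settings below, and the cause was not tested. Counts under alternatives, here and above, were not set beside the share of all genes in the same setting. They are not read as results about the members alone. In HT29, where none passed, 1 member passed and was a DEG with edgeR's quasi-likelihood test, 2 with DESeq2, 1 without the clone KO 28 and 1 without the clone KO 38. In HCT116 (4 passed, 1 DEG) the counts were 10 and 3 DEGs with no filter on low values, 2 with clone as a random effect, 1 with clone means, 1 without the clone WT 6, and 2 DEGs without the clone KO 44 or KO 47. In SW480 (21 passed, 3 DEGs) 10 passed with clone means, and there were 5 DEGs with DESeq2 and without the clone WT 5 or KO 21.

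Of differences between HT29 and HCT116 (3), 1 passed with no filter, 5 with DESeq2 and 1 with clone as a random effect. Between HT29 and SW480 (12), 5 passed with that random effect, and between HCT116 and SW480 (5), 9 passed with DESeq2 and 3 with the random effect. Between clones, 11 passed with DESeq2 for HT29 KO (4), 1 with at least 10 in every library for HT29 WT (3), 6 with no filter for HCT116 KO (3), and 4 with no filter and 1 with DESeq2 for HCT116 WT (0, where 7 had an unadjusted p under 0.05 by limma).

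With the replicate block by round, 7 members passed for the genotypes of HCT116, 9 for HT29 KO clones, 9 and 8 for the KO and WT clones of HCT116, and 8 for SW480 WT clones, and it moved no other count by more than 1.5 times. In HT29 and SW480 the samples share only a round letter, and 2 of 6 and 1 of 6 clone pairs deviated together, with correlations of −0.309 to 0.424 and −0.0411 to 0.127.

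Without 1 library, 0 to 1 members passed in HT29 (1 without KO 28B), 3 to 5 in HCT116 and 18 to 21 in SW480, and the DEGs were 0 to 1, 1 to 1 and 3 to 5 (5 without WT 5A or KO 21B). The differences passing were 1 to 8 between HT29 and HCT116 (1 without HCT116 KO 44B, 8 without HT29 KO 28B), 9 to 13 between HT29 and SW480, and 4 to 6 between HCT116 and SW480. Between clones, 1 to 17 passed for HT29 KO (1 without KO 28A or KO 28B, 17 without KO 38A), 0 to 8 for HT29 WT (8 without KO 38A or KO 38B), 2 to 3 for HCT116 KO, 0 to 1 for HCT116 WT (1 without KO 47A or KO 47B), 6 to 12 for SW480 KO (6 without KO 17A) and 3 to 6 for SW480 WT.

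*CA9* in HCT116 and SW480 and *SLC2A3* in HT29 had too few reads to be tested. With 2 clones for each genotype, an effect of the edit and of the clones chosen cannot be told apart.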
